A study of Drosophila melanogaster with 56 samples.

Results

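The first hour after egg-laying was examined in *Drosophila melanogaster* embryos by comparing poly(A) RNA sequenced at 1 h with poly(A) RNA sequenced at 0 h, the time of egg deposition. The 2 time points comprise 8 libraries, 4 at 0 h and 4 at 1 h, of the 56 libraries of a time course with 14 time points up to 20 h. They were chosen by the time point in the sample labels, without any measured value. All libraries came from whole embryos of wild-type Oregon R flies, a laboratory strain, laid in short collection windows and either processed at once (0 h) or aged (1 h). No treatment or genotype separates the groups, and each library pools many embryos, so that fewer cells of a type and less RNA per cell cannot be told apart. The study's text speaks of biological replicates, while the labels do not say how the 4 libraries of a time point were collected, and the p-values measure the spread between these samples. The deposited values are raw read counts per gene, and levels are given here as CPM, the count of a gene scaled to the same total of counts on genes in every library.

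The fly egg is laid with a large store of maternal mRNA. Egg activation, which accompanies ovulation, completes meiosis and starts the translation, polyadenylation and clearance of stored transcripts, and the nuclei then divide rapidly in a shared cytoplasm with very little transcription of their own. During this hour changes in mRNA are therefore usually read as changes in the stock laid down by the mother. Since poly(A) RNA was sequenced, a transcript whose tail shortens or lengthens can also change its measured level without a change in its amount, and these libraries cannot separate the 2.

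Counts on genes ranged from 17007784 to 17964351 in the 4 libraries of 0 h and from 15995007 to 19251866 in the 4 of 1 h. At these depths 3 counts, the floor used for detection, correspond to 0.156 to 0.188 CPM. In 0 h replicates 1, 2 and 3 a count was found for 11358, 11233 and 11528 genes, and in 0 h replicate 4 for 9827. At 1 h the number was between 10248 and 10786. Reads outside any gene made up 0.608% ± 0.124 (SD, n = 4) of the reads considered at 0 h and 0.477% ± 0.0276 (n = 4) at 1 h, with every 1 h library below every 0 h library (two-sided exact permutation test, p = 0.0286, the smallest that 4 against 4 libraries allow, and 0.143 after Benjamini-Hochberg adjustment over 5 library measures). The other measures, which were the total count, the ambiguous share and the shares of the 10 most abundant genes and of mitochondrially encoded genes, gave exact permutation p-values of 0.0857 to 0.629, and whether these library measures take part in the gene results was not tested.

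The 0 h libraries were not alike. Genes that are nearly silent at 2 and 3 h and reach at least 10 CPM later were used to read how much mRNA of late embryos a library holds, with no use of the 0 and 1 h values in choosing them. Only 14 genes were at most at 1% of their highest level at both 2 and 3 h, all with the highest level at 20 h. Their summed level was 3.10%, 6.82% and 6.68% of the summed 20 h level in 0 h replicates 1, 2 and 3. In 0 h replicate 4 it was 0.104%. The 1 h libraries held 2.61%, 0.770%, 0.739% and 0.948%. For these genes replicate 4 was the lowest of the 8 libraries and replicates 1 to 3 the highest.

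Replicate 4 was also the lowest with 2 of 3 larger gene sets. With a limit of 2% in place of 1%, 226 genes gave 3.54%, 3.45% and 5.20% in 0 h replicates 1 to 3, 0.168% in replicate 4 and 0.528% to 1.19% at 1 h. A limit of 1% at 3 h alone, chosen after the data were seen because 14 genes are few, left 536 genes, which gave 4.25% to 7.05% in replicates 1 to 3, 0.416% in replicate 4 and 0.847% to 1.70% at 1 h. A looser limit of 5% at 3 h alone, also chosen after the data were seen, left 1531 genes and gave another order, with 8.75% to 11.0% in replicates 1 to 3, 5.98% in replicate 4 and 4.83% to 5.81% at 1 h. Falls from 0 to 1 h are therefore given separately against 0 h replicate 4 and against 0 h replicates 1 to 3. The comparisons share the same 4 libraries of 1 h, so their values are set side by side and are not independent of each other.

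**Figure D1:**
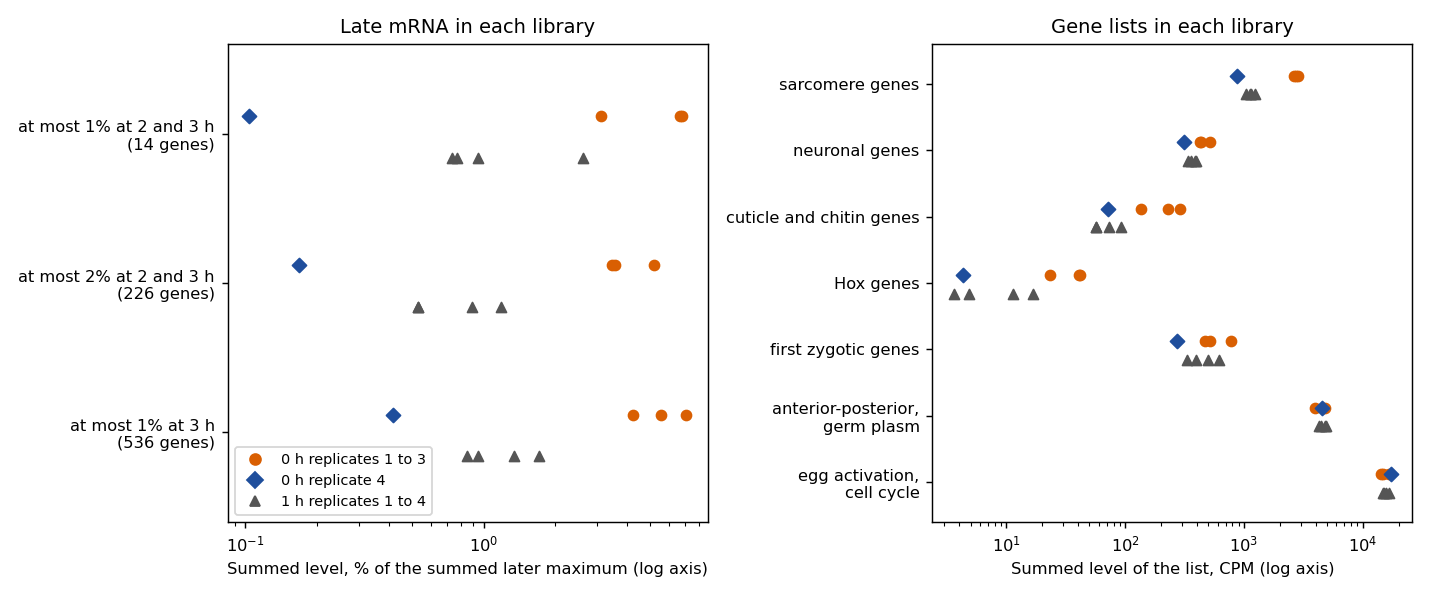
Left, the summed level of genes silent at 2 or 3 h, as a percent of their summed later maximum (log axis), for 3 ways of choosing the genes, with 1 point per library. Right, the summed CPM (log axis) of 7 gene lists in the same libraries; 0 h replicate 4 (diamonds) lies at 0.104% to 0.416% on the left, below all other libraries, and on the right it lies below 0 h replicates 1 to 3 for the sarcomere, neuronal, cuticle, Hox and first zygotic lists and near or within the other libraries for the 2 maternal lists at the bottom.

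Against all 4 libraries of 0 h, 1337 genes were lower at 1 h and 15 were higher (edgeR quasi-likelihood test in a fit of all 56 libraries, Benjamini-Hochberg adjusted p under 0.05 and a change of at least 1 on the log2 scale). These are 12.1% and 0.136% of the 11065 genes tested. The falls were mostly of genes with low levels, with a median of 2.18 CPM at 0 h and 0.626 CPM at 1 h, against medians of 21.4 and 17.6 CPM over all genes tested. In only 116 of the 1337 falls (8.68%) was every 0 h library above every 1 h library, which held for 924 of all genes tested (8.35%). The count rested on single libraries. It was 537 without 0 h replicate 1, 460 without 0 h replicate 3, 567 without 1 h replicate 3, 613 without 1 h replicate 4 and 2008 without 0 h replicate 4, and a fit of the 0 and 1 h libraries alone called 81.

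Split by library, more falls were called against the 3 libraries of 0 h replicates 1 to 3 than against the lone replicate 4. Against these 3 libraries 2008 of 11235 genes were lower at 1 h, or 17.9%, and 35 were higher, or 0.312%. With no fold limit, 2263 were lower (20.1%) and 1091 higher (9.71%). Each of these 3 libraries lay above every 1 h library in 3196 of the 11235 genes (28.4%) and below every 1 h library in 942 (8.38%). In 1932 of the 2008 (96.2%) replicate 4 lay below every other 0 h library, compared with 4103 of all genes tested (36.5%). In 1013 (50.4%) replicate 4 lay below every 1 h library, compared with 24.9% of the genes tested against 4 libraries. Its level was a median of 0.0682 times the mean of replicates 1 to 3 in these genes, and 0.975 times in all genes tested. High values in replicates 1 to 3 helped to choose these genes, which favours a lower place and a lower ratio for replicate 4. The median level of the 2008 genes was 2.33, 1.59, 2.73 and 0.167 CPM in the 4 libraries of 0 h and 0.312 to 0.692 CPM at 1 h, and it rose to 31.3 CPM at 20 h. The highest later level was at 20 h in 1182 of them, or 58.9%, compared with 25.1% of the genes tested against 4 libraries.

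Against 0 h replicate 4 alone, 57 of 12023 genes were lower at 1 h, or 0.474%, and 106 were higher, or 0.882%, together 1.36% of the genes. With no fold limit, 75 were lower (0.624%) and 128 higher (1.06%). This comparison takes the spread of the lone library from the other time points, and the fit of only the 5 libraries compared called no gene in either direction at an adjusted p under 0.05, with 1259 genes at an unadjusted p under 0.05 in edgeR. It also shifted the median of all genes by 0.24 on the log2 scale. With DESeq2's size factors that median was 0.12 and the calls were 73 falls and 60 rises, so rises made up 65.0% of the calls in one scaling and 45.1% in the other. Leaving out 1 h replicate 1 gave 88 falls and leaving out 1 h replicate 3 gave 101. All 57 falls were called with both scalings, as were 60 of the 106 rises. The median-of-all-genes shift was −0.09 against 4 libraries of 0 h and 0 against replicates 1 to 3.

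**Figure D2:**
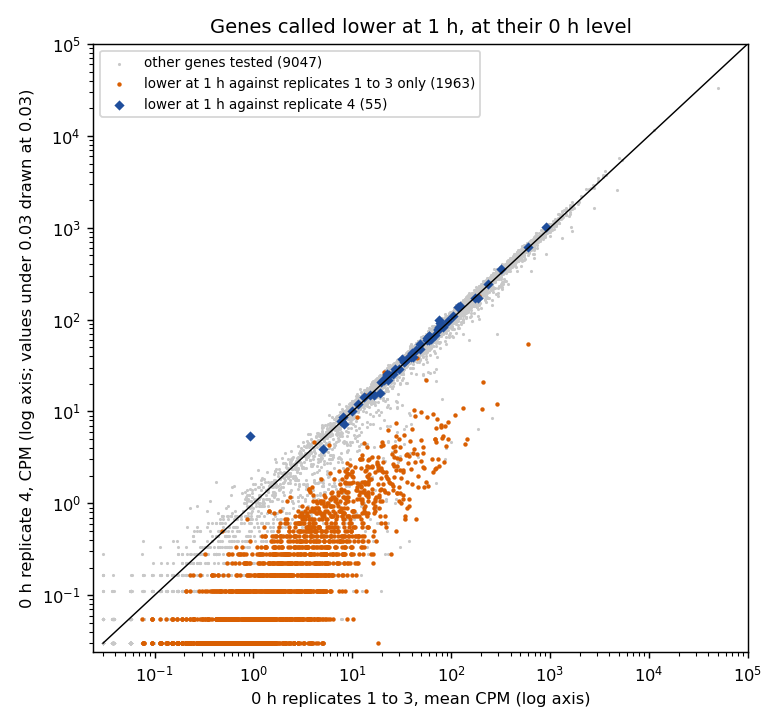
Level at 0 h of the 11065 genes tested, as the mean CPM of replicates 1 to 3 (x, log axis) and the CPM of replicate 4 (y, log axis, values under 0.03 drawn at 0.03), with the line of equal level. The 55 genes drawn as lower at 1 h against replicate 4 (blue diamonds) lie along the line with 1 exception above it, whereas most of the 1963 called against replicates 1 to 3 alone (orange) lie below it.

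The falls seen from replicate 4 were of abundant maternal transcripts. Of the 57 genes, 53 averaged 50 counts or more over the 5 libraries, and in all 53 each of the 4 libraries of 0 h lay above each of the 4 of 1 h, which held for 8.35% of the genes tested against 4 libraries. Low 1 h values and a high replicate 4 value helped to choose these genes and favour this outcome. Their level in replicate 4 was between 0.840 and 1.31 times the mean of replicates 1 to 3, with a median of 1.05. They fell 2.02-fold to 7.44-fold, with a median of 2.47-fold. The median level of the 57 genes was 40.7, 39.8, 38.9 and 39.1 CPM in the 4 libraries of 0 h and 16.5, 9.91, 16.9 and 12.1 CPM in those of 1 h. The replicate 4 value chose these genes, so the high replicate 4 level itself is no finding, while replicates 1 to 3 were not used in the choice.

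The 3 members with the largest fitted fold were antisense RNAs with few reads, asRNA:CR31144, asRNA:CR44067 and asRNA:CR45926. Their levels were 0.612, 0.278 and 5.34 CPM in replicate 4, and in replicates 1 to 3 they stayed at or below 1.28 CPM. The first 2 had no count in any 1 h library, so no fold is given for them. They fall under the 50-count minimum, and the strand setting of the counting is not given in the sources used here, so that reads of their partner genes on the other strand cannot be told apart from theirs.

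The largest well-measured fall was that of CG31075 (FBgn0051075, 3R, 26985624 to 26988517, minus strand, positions here from the Ensembl annotation of BDGP6). It was at 50.3, 52.6, 41.7 and 54.5 CPM at 0 h and at 9.15, 3.57, 8.78 and 4.38 CPM at 1 h. The groups did not overlap, and the change was −2.90 ± 0.45 (SE, log2) against replicate 4, with an edgeR adjusted p of 1.1e-04, and −2.70 ± 0.34 against replicates 1 to 3. The transcript went on to 0.950 CPM at 2 h and 0.178 CPM at 3 h and was at 11.5 CPM at 20 h.

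Several falling transcripts encode enzymes that act on nucleic acids. Polr3A (FBgn0030687, X, 15762956 to 15769514, plus strand) encodes the largest subunit of RNA polymerase III, which transcribes tRNA and 5S rRNA genes. It was at 44.9, 36.3, 40.3 and 43.1 CPM at 0 h and at 12.2, 6.13, 12.1 and 7.31 CPM at 1 h. All 0 h libraries were above all 1 h libraries, at a change of −2.01 ± 0.25 against replicate 4 (edgeR adjusted p = 2.6e-06) and −1.90 ± 0.19 against replicates 1 to 3. PolH (FBgn0037141, 3L, 21938634 to 21941812, minus strand), DNA polymerase eta, which copies past UV damage, went from 103, 114, 96.7 and 109 CPM to 32.5, 17.9, 34.2 and 20.1 CPM. Its change was −1.88 ± 0.32 against replicate 4. In both genes the 1 h libraries fell into a higher pair, replicates 1 and 3, and a lower pair, replicates 2 and 4. The split was not particular to them. The medians of all falls against replicate 4 formed the same pairs, at 16.5, 9.91, 16.9 and 12.1 CPM in 1 h replicates 1 to 4.

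Other members with roles in DNA metabolism and chromosomes were named for those roles after their values were seen. RnrS, the small subunit of ribonucleotide reductase, which makes deoxynucleotides, was at 824, 1084, 810 and 1015 CPM at 0 h and 377, 271, 443 and 309 CPM at 1 h, the highest-count member of the set. Its change was −1.36 against replicate 4 (edgeR adjusted p = 0.027) and −1.18 against replicates 1 to 3. SMC6, a subunit of the SMC5/6 complex that acts in DNA repair, went from 114 to 140 CPM at 0 h to 40.8 to 59.6 CPM at 1 h. Brca2, which acts in the repair of DNA breaks by recombination, went from 65.9 to 80.5 CPM at 0 h to 25.0 to 41.6 CPM. SA1, a subunit of the cohesin ring that holds sister chromatids together, went from 111 to 136 CPM to 42.1 to 73.9 CPM. The changes of SMC6, Brca2 and SA1 against replicate 4 were −1.29, −1.13 and −1.10, with edgeR adjusted p-values of 0.015, 0.037 and 0.018.

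A second set, again picked by known role after the values were seen, belongs to metabolism and protein synthesis. Nacalpha encodes a subunit of the nascent polypeptide-associated complex, which binds new chains at the ribosome, and it went from 561 to 625 CPM at 0 h to 144 to 269 CPM at 1 h (−1.33 against replicate 4, edgeR adjusted p = 0.0028). Pgi, an enzyme of glycolysis, went from 224 to 246 CPM to 83.0 to 130 CPM (−1.03, edgeR adjusted p = 0.032). FeCH, ferrochelatase, the last enzyme of heme synthesis, changed by −1.33 (edgeR adjusted p = 3.1e-04), and Nfs1 and IscU, which build iron-sulfur clusters, by −1.11 and −1.09. Pdp, a phosphatase that acts on the pyruvate dehydrogenase complex, was at 60.1, 60.0, 50.4 and 59.6 CPM at 0 h and at 20.6, 14.5, 22 and 15.6 CPM at 1 h, a change of −1.54 ± 0.22 (edgeR adjusted p = 3.2e-05).

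Transcription regulators and other cell functions were also among the 53. The transcript of Jra, the fly Jun protein, was at 56.4, 59.7, 63.9 and 65.9 CPM at 0 h and at 27.2, 18.5, 27.8 and 20.6 CPM at 1 h, with a change of −1.31 ± 0.20 (edgeR adjusted p = 1.1e-04). ebd1, a nuclear cofactor in Wingless signalling, was at 63.2, 67.1, 55.6 and 60.9 CPM and then at 22.8, 15.1, 20.7 and 12.9 CPM (−1.59 ± 0.22, edgeR adjusted p = 3.2e-05). Not11, a subunit of the CCR4-NOT complex that shortens poly(A) tails, changed by −1.18, Vps36, a subunit of the ESCRT-II sorting complex, by −1.48, and Atac2, a subunit of a histone acetyltransferase complex, by −1.20. The ID FBgn0015393 and several genes known only by CG numbers behaved alike, with CG18048 at −2.27, CG9926 at −2.13, CG8097 at −2.03 and CG34039 at −2.0 against replicate 4. Zaf1 was the smallest in level of the named falls, at 6.97 to 9.23 CPM at 0 h and 1.78 to 3.00 CPM at 1 h.

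**Figure D3:**
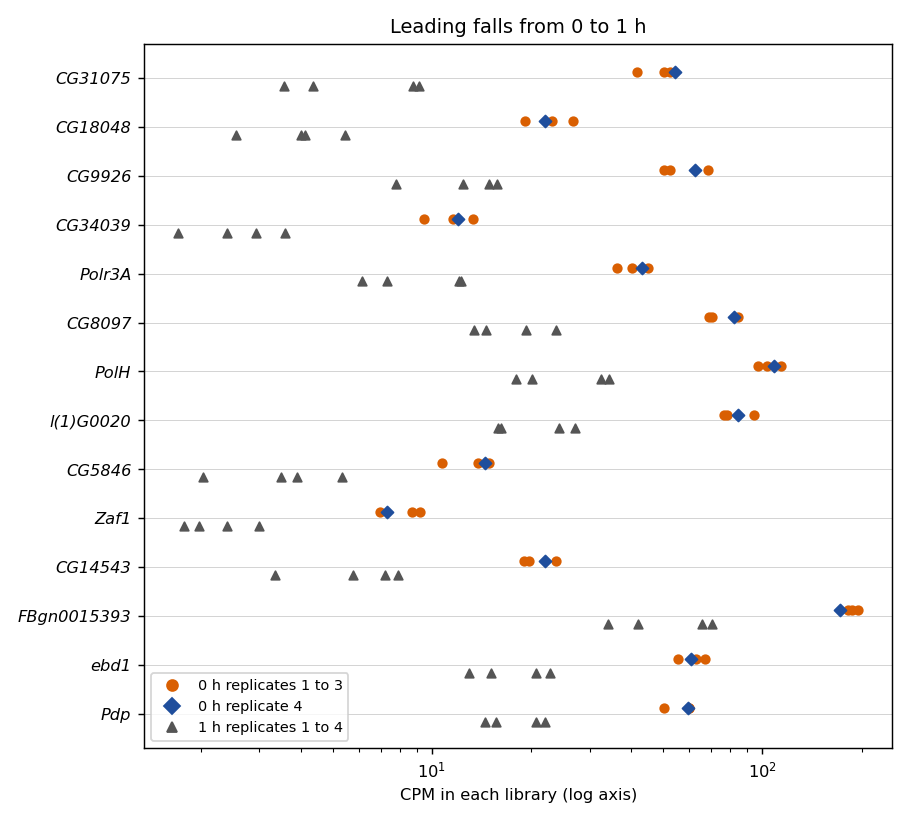
CPM (log axis) in each of the 8 libraries for the 14 named falls, which are the largest falls in the comparison with 4 libraries of 0 h or with 0 h replicate 4 that met a count minimum and had no overlap between libraries. In each gene 0 h replicate 4 (diamond) lies among or next to 0 h replicates 1 to 3 (circles) and all 4 libraries of 1 h (triangles) lie below, as for CG31075 at 41.7 to 54.5 CPM against 3.57 to 9.15 CPM.

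What these 57 genes did later was not used to choose them. At 2 h 55 of them (96.5%) had a lower mean level than at 1 h, and 53 (93.0%) were at less than 0.5 times their 1 h level, compared with 34.1% and 17.6% of all genes tested against replicate 4. Their median was 40.6 CPM at 0 h, 13.8 CPM at 1 h and 2.53 CPM at 2 h. At 3 h the median was 18.7 CPM, and 52 genes (91.2%) were above their 2 h level, compared with 52.8% of all genes tested. It stayed between 16.3 and 30.1 CPM to 20 h. Polr3A followed this course with 2.05 CPM at 2 h, 17.9 CPM at 3 h and 57.5 CPM at 12 h, RnrS with 51.1, 604 and 229 CPM at the same times, and Nacalpha with 34.6, 136 and 469 CPM.

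A few members did not come back. CG9926 was at 0.632 CPM at 2 h and 0.245 CPM at 3 h and was at 0.286 CPM at 20 h. CG5194, at 65.3 to 100 CPM at 0 h and 35.6 to 50.2 CPM at 1 h, was at 3.38 CPM at 2 h and 0.665 CPM at 20 h. Only 54.4% of the genes lower against replicate 4 exceeded their 0 h mean at any time point from 3 h on, compared with 76.8% of all genes tested. A high replicate 4 value at 0 h chose these genes, which makes exceeding the 0 h mean less likely. The members were spread over the chromosome arms, with 6 on X, 8 on 2L, 12 on 2R, 9 on 3L and 21 on 3R, and 53 of the 57 are annotated as protein coding. The median exon length of the 56 with an annotation was 1526 bases (495 to 5206), against 1875 bases for all genes tested.

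**Figure D4:**
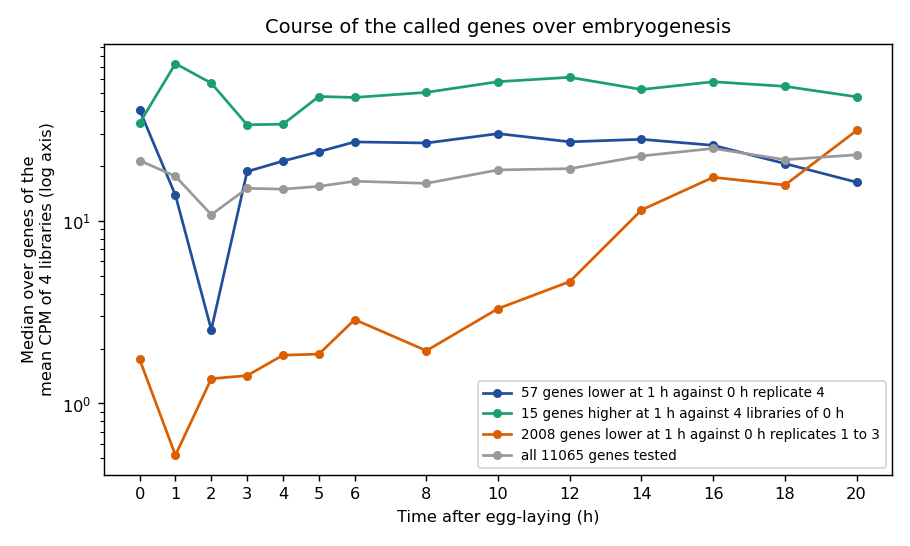
Median over genes of the mean CPM of 4 libraries (log axis) against hours after egg-laying, for the genes called between 0 and 1 h and for all 11065 genes tested. The 57 genes lower against 0 h replicate 4 (blue) go from 40.6 CPM at 0 h to 2.53 CPM at 2 h and 18.7 CPM at 3 h, while the 2008 genes lower against replicates 1 to 3 (orange) reach 31.3 CPM only at 20 h.

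The rises were few and, except for CG16813, of transcripts well counted at 0 h. Against 4 libraries of 0 h, 15 genes were higher at 1 h, and in 14 of them every 1 h library lay above every 0 h library, which held for 636 of all genes tested (5.75%). The exception was CG16813, with 15, 3, 3 and 2 counts at 0 h and 5, 34, 13 and 31 counts at 1 h. The same 8 libraries chose the 15 genes, which favours this separation. With no fold limit, 439 genes were higher (3.97%) and 1703 lower (15.4%). All 15 were also called with DESeq2, with its size factors, with no filter and after leaving out any 1 of the 8 libraries, and 13 of them in a fit of the 0 and 1 h libraries alone, although with a library left out the number called ranged from 17 to 35. Leaving out 0 h replicate 3 gave 32 rises, 0 h replicate 1 gave 23, 0 h replicate 4 gave 35, 1 h replicate 3 gave 27 and 1 h replicate 4 gave 32. The median level of the 15 genes was 29.1 to 38.5 CPM in the 4 libraries of 0 h and 70.9 to 76.3 CPM in those of 1 h.

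The largest well-measured rise was N (FBgn0004647, X, 3134870 to 3172221, plus strand), which encodes the Notch receptor. It was at 122, 80.7, 169 and 116 CPM at 0 h and at 462, 435, 261 and 197 CPM at 1 h. All 1 h libraries were above all 0 h libraries, but the 1 h libraries were far apart, with replicates 1 and 2 high and replicates 3 and 4 lower. The change was 1.57 ± 0.32 against 4 libraries (edgeR adjusted p = 5.1e-04) and 1.74 ± 0.55 against replicate 4 alone, where it missed the threshold (edgeR adjusted p = 0.09). Ptp10D, a receptor tyrosine phosphatase of axons and the trachea, showed the same split of the 1 h libraries. It went from 79.4, 58.8, 105 and 84.0 CPM to 215, 215, 139 and 124 CPM (1.17 ± 0.35, edgeR adjusted p = 0.016 against 4 libraries and 0.35 against replicate 4).

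Other rises were more even among the 1 h libraries. Slik, a kinase of the membrane-cytoskeleton linker Moesin, went from 208, 177, 233 and 211 CPM to 388, 437, 393 and 409 CPM (1.05 ± 0.14). qin, which acts in the piRNA pathway that silences transposons in the germ line, went from 29.3, 28.6, 42.2 and 37.2 CPM to 81.8, 81.2, 78.6 and 72.2 CPM (1.28 ± 0.23). mdy, a diacylglycerol acyltransferase of fat storage, went from 8.88 to 14.5 CPM at 0 h to 19.4 to 25.9 CPM at 1 h (1.10 ± 0.21).

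Further named rises were tay, CG13384, CG30394, CG43759, CG34348, pigeon, CG5815 and CG11257, with changes of 1.01 to 1.40. Against replicate 4 alone the rises of N, qin and Ptp10D missed an adjusted p of 0.05, and those of pigeon and CG11257 were 0.96 and 0.94, under the fold limit. The change of CG5815 against replicate 4 was 1.00 after rounding and just short of the limit. Slik, tay, mdy, CG13384, CG30394, CG43759 and CG34348 were called in that comparison too. After 1 h the group did not share a course. 9 of the 15 genes were lower at 2 h than at 1 h. qin was at 45.7 CPM at 2 h, 8.46 CPM at 3 h and 2.74 CPM at 20 h, whereas Slik was at 507 CPM at 2 h and 198 CPM at 20 h.

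**Figure D5:**
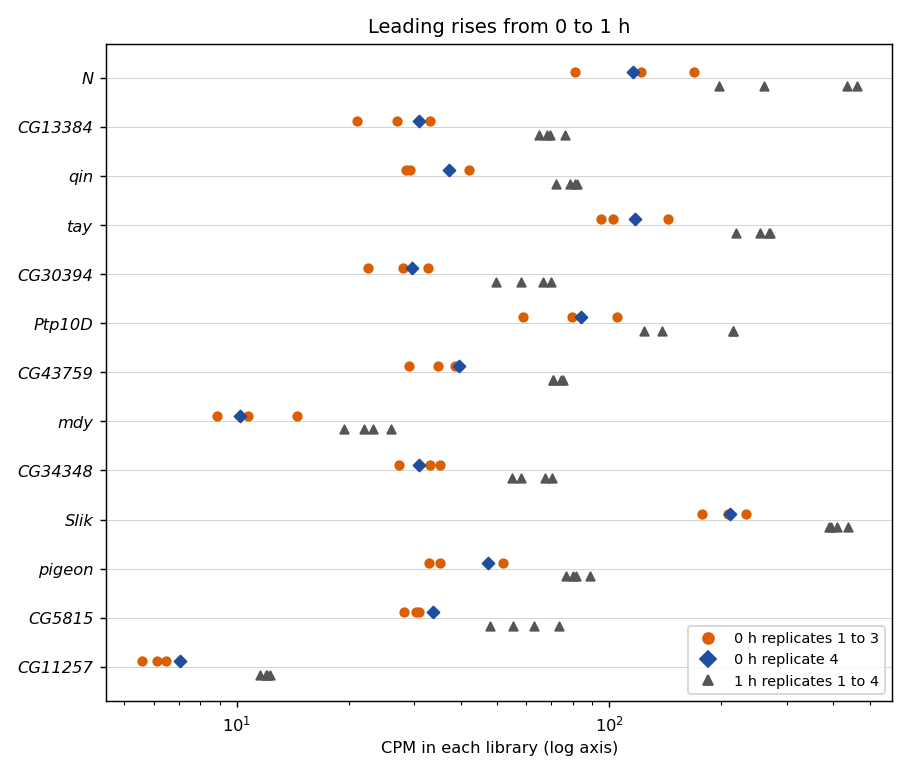
CPM (log axis) in each of the 8 libraries for the named rises described in the text, ordered by the change against 4 libraries of 0 h. All 1 h libraries (triangles) lie above all 0 h libraries (circles and diamonds) in every gene shown, which the rule for naming required. The 1 h libraries of N spread from 197 to 462 CPM and those of CG11257 from 11.5 to 12.3 CPM.

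The rising transcripts were long. Their median exon length was 3134 bases (902 to 10150), against 1974 bases for all genes tested. The falls against 4 libraries and against replicates 1 to 3 were also longer than the genes tested, with medians of 2642 and 2554.5 bases. With the tested genes in 5 classes of equal size by exon length, from the shortest to the longest, the median change was −0.21, −0.14, −0.07, −0.01 and 0.01 on the log2 scale against 4 libraries, and 0.14, 0.15, 0.21, 0.29 and 0.43 against replicate 4. Of the 15 rises, 11 were in the 2 classes with the longest exons, and of the falls against replicate 4, 2 were in the class with the longest exons. Length moved with the change over all genes in each comparison, and its part in the rises was not tested.

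Most maternal genes with known roles in the first hours were not called, as was the case for most genes tested. Over all genes tested 12.2% were called against 4 libraries and 18.2% against replicates 1 to 3, and far fewer against replicate 4. The counts of the maternal, heat shock, histone variant and ribosomal protein lists that follow are read against these shares. Of the 13 matched determinants of the anterior-posterior axis and germ plasm, none passed the fold limit in any of the 3 comparisons. Their median change was 0.15 against 4 libraries, 0.16 against replicate 4 and 0.29 against replicates 1 to 3, where the medians over all genes were −0.09, 0.24 and 0. bcd, the anterior morphogen, was at 121, 196, 164 and 117 CPM at 0 h and at 221, 217, 178 and 163 CPM at 1 h (0.46 ± 0.40, edgeR adjusted p = 0.45), with overlapping groups. osk, which assembles the germ plasm at the posterior pole, was at 760 to 1137 CPM at 0 h and 855 to 1176 CPM at 1 h. nanos, the posterior translational repressor, was at 224 to 266 CPM at 0 h and 193 to 242 CPM at 1 h. gcl, which is needed to form pole cells, was higher in every 1 h library, at 338 to 372 CPM against 250 to 295 CPM (0.45 ± 0.16, edgeR adjusted p = 0.041), below the fold limit.

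Among 29 genes of egg activation and the cell cycle, 1 was called against 4 libraries and none against replicate 4 or against replicates 1 to 3. That gene was cort, which encodes a meiosis-specific activator of the anaphase-promoting complex. It was at 70.5, 82.9, 74.7 and 84.4 CPM at 0 h and at 38.4, 27.1, 41.4 and 30.0 CPM at 1 h, without overlap (−1.11 ± 0.29, edgeR adjusted p = 0.0058). Its change against replicate 4 was −1.13 ± 0.43 with an edgeR adjusted p of 0.19. png, the kinase subunit that unlocks translation at egg activation, was at 64.2 to 78.7 CPM and then at 35.9 to 50.7 CPM, also without overlap (−0.55 ± 0.27, edgeR adjusted p = 0.14). The mitotic cyclin CycB was at 4583 to 5787 CPM at 0 h and 5032 to 5305 CPM at 1 h. The median change of the list was 0.07 against 4 libraries and 0.08 against replicate 4, and the latter was −0.03 with DESeq2's size factors.

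None of the 16 tested regulators of maternal mRNA was called in any comparison, and their median change was 0.02 against 4 libraries. The list holds smg, whose protein recruits the deadenylase to maternal transcripts. It was at 2778, 3435, 3011 and 3230 CPM at 0 h and at 3162, 3304, 3457 and 3049 CPM at 1 h, within the same range. Not1, the scaffold of the CCR4-NOT complex, was at 800 to 1022 CPM and then at 968 to 1282 CPM (0.54 ± 0.22, edgeR adjusted p = 0.07). 2 members, cup and BicC, had 1 count in all 8 libraries together and were not tested. Their counting was not checked, and the strand setting is not given in the sources used here, so this does not show that they are absent from the egg. Of 14 genes of the terminal and dorsal-ventral pathways, tsl and pip fell against 4 libraries, a share near the 12.1% of all genes tested. Both had low levels in replicate 4, with pip at 18.1, 10.3, 21.4 and 0.501 CPM at 0 h and 0.831 to 4.90 CPM at 1 h.

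Of 8 tested heat shock genes, Hsp67Bc fell, and it was at 0.223 CPM in replicate 4 and 2.47 to 2.84 CPM in replicates 1 to 3. Hsp26, a small heat shock protein gene with abundant maternal mRNA, was at 1681, 1669, 1458 and 1760 CPM at 0 h and at 820, 606, 929 and 792 CPM at 1 h. The groups did not overlap, and its change of −0.99 ± 0.29 (edgeR adjusted p = 0.015) fell just short of the fold limit. Of the 6 histone variant genes none was called. The transcript of cid, the centromeric histone H3, was at 51.5 to 61.6 CPM and then at 28.9 to 41.2 CPM (−0.61 ± 0.24, edgeR adjusted p = 0.072). Of 84 tested cytoplasmic ribosomal protein genes none was called against 4 libraries or against replicate 4, with median changes of −0.09 and 0.08, and the second was −0.04 with DESeq2's size factors. Of the mitochondrially encoded genes, 17 were tested and none was called.

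Lists of genes of later tissues are read against the share of all genes tested that fell, 12.1% against 4 libraries and 17.9% against replicates 1 to 3, and the 1.36% changed against replicate 4. Replicate 4 lay below every 1 h library in 19 of 22 sarcomere, 11 of 20 neuronal, 10 of 20 cuticle and 2 of 8 Hox genes, compared with 24.9% of all genes tested. Of the 22 matched sarcomere genes, 17 fell against 4 libraries and 19 against replicates 1 to 3, and none was called against replicate 4, where the median change was 1.38. Their summed level was 2622 to 2871 CPM in 0 h replicates 1 to 3, 875 CPM in replicate 4 and 1032 to 1232 CPM at 1 h. Mhc, the muscle myosin heavy chain, was at 262, 273, 337 and 12.1 CPM at 0 h and at 67.9, 55.8, 39.7 and 33.8 CPM at 1 h. Replicate 4 was below every 1 h library, and the changes were −2.36 against replicates 1 to 3 (edgeR adjusted p = 0.0027) and 2.21 against replicate 4 (edgeR adjusted p = 0.34). Act57B, a muscle actin, was at 629, 564, 596 and 54.8 CPM at 0 h and at 147, 120, 76.1 and 116 CPM at 1 h. Tm1 and Actn, whose products also serve non-muscle cells, were alike in all libraries, at 476 to 600 CPM and 183 to 243 CPM.

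Neuronal genes were called in a like way. Of 20 matched, 13 fell against 4 libraries, 17 fell against replicates 1 to 3 and none was called against replicate 4, where the median change was 1.84. elav, an RNA-binding protein of neurons, was at 25.6, 12.3, 24.0 and 2.17 CPM at 0 h and at 5.12, 9.75, 2.39 and 2.13 CPM at 1 h. cpx, which regulates synaptic vesicle fusion, was at 12.8, 14.5, 21.7 and 0.445 CPM and then at 4.08, 2.56, 2.39 and 1.5 CPM. Of the cuticle and chitin genes 4 of 18 tested fell against 4 libraries, 10 of 20 against replicates 1 to 3 and none of 21 against replicate 4. verm, a chitin deacetylase of the trachea and epidermis, was at 79.7, 37.3, 111 and 2.56 CPM and then at 20.8, 22, 8.83 and 11.8 CPM. All 8 Hox genes, which specify segments, fell against replicates 1 to 3 and 7 against 4 libraries, with summed levels of 23.3 to 41.2 CPM in replicates 1 to 3, 4.29 CPM in replicate 4 and 3.64 to 16.8 CPM at 1 h.

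Of the first genes that the embryo transcribes itself, 29 were tested. Of these, 11 fell against 4 libraries and 15 against replicates 1 to 3, while dpp and Kr rose against replicate 4, where over all genes tested 12.1% and 17.9% fell and 0.882% rose. In 28 of the 29 replicate 4 lay below the other 0 h libraries, and in 15 it lay below every 1 h library, compared with 36.5% and 24.9% of all genes tested. Kr, a gap gene, was at 13.1, 15.4, 21.8 and 2.17 CPM at 0 h and at 3.76, 7.78, 4.10 and 5.44 CPM at 1 h, and it reached 97.8 CPM at 2 h and 281 CPM at 3 h. Its change was −1.47 ± 0.22 against replicates 1 to 3 (edgeR adjusted p = 1.8e-06) and 1.46 ± 0.36 against replicate 4 (edgeR adjusted p = 0.023). dpp, the dorsal BMP ligand, was at 4.26, 1.94, 5.13 and 0.445 CPM and then at 1.52, 2.24, 0.623 and 1.25 CPM. slam, which is also supplied by the mother and acts in cellularization, was at 234, 295, 437 and 226 CPM at 0 h and at 290, 419, 326 and 359 CPM at 1 h. Among 5 activators of the zygotic genome, zld, the pioneer factor Zelda, was at 446 to 575 CPM and then at 529 to 647 CPM (0.34 ± 0.14, edgeR adjusted p = 0.079), and only grh was called, with the directions of Kr.

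The rises against replicate 4 were examined next. A low replicate 4 value chose these genes, so its position below the 1 h libraries, found in 23.0% of all genes tested, is no finding. The same choice favours its being the lowest of all 8 libraries. For the next 2 counts the shares of all genes tested are not given here, so they only describe these genes. In 96 of the 106 genes replicate 4 was the lowest of all 8 libraries, and in 86 the mean of 0 h replicates 1 to 3 was above the 1 h mean. The median level of the 106 genes was 8.86, 4.2, 9.98 and 0.390 CPM in the 4 libraries of 0 h and 2.69, 3.28, 1.01 and 1.47 CPM in those of 1 h. The 12 largest rises that met the count minimum were Ppn, LanB2, smal, Ndg, Gp150, CG15347, CG14629, LanA, CG9743, FBgn0004364, bnb and Ance. Ppn, LanB2, Ndg and LanA belong to the basement membrane, the sheet of matrix under epithelia, and were grouped after their values were seen. The others changed by 2.43 to 3.11 against replicate 4 and by −1.90 to −1.30 against replicates 1 to 3. Ppn, papilin, was at 63.1, 19.8, 77.3 and 1.5 CPM at 0 h and at 18.0, 23.9, 3.58 and 5.56 CPM at 1 h. Its change was 3.28 ± 0.87 against replicate 4 (edgeR adjusted p = 0.038) and −1.85 ± 0.45 against replicates 1 to 3 (edgeR adjusted p = 0.0018). The laminin chains LanB2 and LanA changed by 3.25 and 2.79 against replicate 4 and by −1.46 and −1.40 against replicates 1 to 3, and nidogen, Ndg, by 3.03 and −2.03. Replicates 1 and 2 of 1 h were above replicates 3 and 4 in Ppn, LanB2, LanA and Ndg. The count of 106 was 48 without 1 h replicate 1, 19 without 1 h replicate 2 and 241 without 1 h replicate 3.

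A minority rose against replicate 4 with the other 0 h libraries at the level of replicate 4. SF1, a splicing factor, chosen as an example after its values were seen, was at 92.0, 88.4, 94.0 and 95 CPM at 0 h and at 151, 176, 161 and 197 CPM at 1 h. Its change was 1.02 against replicate 4 (edgeR adjusted p = 6.7e-04) and 0.97 against 4 libraries. Slik, tay, mdy, CG13384, CG30394, CG43759 and CG34348, named above, were also among the 106.

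Follicle cell, male reproductive and gut markers summed to at most 4.00 CPM in each of the 8 libraries. The 22 follicle cell genes, which include yolk protein, eggshell and vitelline membrane genes, summed to 0.454, 4.00, 0.446 and 0.0557 CPM in the 4 libraries of 0 h and to 0.105 to 0.533 CPM at 1 h. 0 h replicate 2 was the highest of the 8, and none of the 6 genes tested against 4 libraries was called. The 17 male reproductive genes had no count in any of the 8 libraries for 15 members and at most 0.0568 CPM in sum. Gut enzyme and fat body genes summed to 2.50 to 3.62 CPM in 0 h replicates 1 to 3, 0.0557 CPM in replicate 4 and 0.438 to 1.46 CPM at 1 h, and none of the 10 tested was called. Blood cell genes were higher, with sums of 394 to 590 CPM in 0 h replicates 1 to 3, 357 CPM in replicate 4 and 372 to 424 CPM at 1 h. Of 14 tested, SPARC and PPO2 fell against 4 libraries, and 6 genes fell against replicates 1 to 3. The shares of all genes tested that fell were 12.1% and 17.9%. Pxn, peroxidasin of the matrix, rose against replicate 4. Its level was 9.20, 2.70, 10.2 and 0.111 CPM at 0 h and 2.77, 3.09, 0.779 and 1.88 CPM at 1 h. The share of mitochondrially encoded genes was 6.29%, 6.33%, 6.29% and 4.05% of the counts at 0 h and 6.18%, 7.07%, 5.49% and 2.78% at 1 h. The part of this share, of late mRNA and of the matrix genes in the calls was not tested.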

How the data were processed

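Poly(A) RNA of whole embryos was sequenced with a stranded kit as single reads. Per the labels and the study's methods, the authors aligned reads to BDGP6 with STAR 2.4.0h, allowing 2 mismatches and up to 10 loci, and counted them per FlyBase gene with HTSeq 0.6.1p1 (SAMtools 1.2 and bcl2fastq 1.8.4 are also named). The strand setting is not given in the sources used here. The deposited values are raw counts, and the 5 summary lines of the counter were left out of totals and tests. Reads outside genes made up 0.436% to 0.777% and ambiguous reads 1.71% to 1.87%. There were 0 per-sample columns without a sample.

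All 56 libraries entered 1 fit with a mean per time point (edgeR 4.0.16 in R 4.3.3, TMM factors, filterByExpr, quasi-likelihood test, Benjamini-Hochberg adjustment over all genes tested). Genes were called at an adjusted p under 0.05 and a log2 change of at least 1. CPM values use counts on genes without TMM factors. Replicate 4 and replicates 1 to 3 of 0 h were each compared with 1 h in the same way. Named genes were the 12 largest falls and up to 15 largest rises that averaged 50 counts or more and whose compared libraries did not overlap. The result of 1 gene that this rule names is not reported here. Gene lists and members were chosen with earlier results of these data known. Of 17558 IDs, 17252 were in the Ensembl annotation of BDGP6, which gave names and positions. Alternatives were DESeq2 1.42.0, its size factors, no filter, the 0 and 1 h libraries alone, the replicate number as a block, no fold limit and leaving out each library. On counts simulated with 200 genes changed 4-fold, edgeR recovered 100% and called 2 other genes in the comparison of 4 with 4 libraries. It recovered fewer with 0 h replicate 4 alone, where more other genes were called. The simulation gave all genes the same spread, held no late mRNA difference between 0 h libraries and changed only genes with ample counts. It therefore does not show how many of the smaller or low-level changes in these data were found. Python 3.11.15, pandas 2.3.3, scipy 1.17.1 and matplotlib 3.10.9 were used for the rest. The floor of 3 counts covers counting error only, whereas the standard errors come from the fit and include the spread between libraries.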

Additional observations from a re-analysis of the deposited data

Results flagged for a closer look

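Of 92 groups of 4 libraries examined, 5 held a library whose gap to the nearest other, as a share of the group's range, exceeded Dixon's critical value, and chance gives about 1 in 20. The count on genes at 1 h had a gap of 0.854 of the range, with replicate 4 lowest at 15995007. The share of reads outside genes at 1 h had a gap of 0.844, with replicate 4 lowest at 0.436%. The share of mitochondrially encoded genes at 0 h had a gap of 0.980, with replicate 4 at 4.05% and the others at 6.29% to 6.33%. The late mRNA level at 1 h had a gap of 0.888, with replicate 1 at 2.61% and the others at 0.739% to 0.948%. The level of Pdp at 0 h had a gap of 0.949, with replicate 3 at 50.4 CPM and the others at 59.6 to 60.1 CPM.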

How the results depend on the processing

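Against 4 libraries of 0 h, genes changed numbered 1352, and 94 with only the 0 and 1 h libraries, 163 without 0 h replicates 1 to 3, 2142 with no fold limit and 492 to 2043 when each library was left out. The falls numbered 81 with only the 0 and 1 h libraries, 57 without 0 h replicates 1 to 3 and 460 (without 0 h replicate 3) to 2008 (without 0 h replicate 4) with each library left out, and the rises 13 with only the 0 and 1 h libraries, 106 without 0 h replicates 1 to 3, 439 with no fold limit and 17 to 35 with each library left out. Against replicate 4 the 57 falls were 0 with only the 0 and 1 h libraries and 47 to 101 with each 1 h library left out. The 106 rises were 189 with DESeq2, 60 with its size factors, 49 with no filter, 0 with only the 0 and 1 h libraries, 69 with the replicate block and 19 to 241 with each 1 h library left out.

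Deviations of same-numbered libraries correlated at 0.329, −0.215, −0.560 and 0.463, so the replicate numbers gave no uniform pairing. Whether same-numbered libraries share a collection cannot be told from these values. With the replicate block 1266 falls and 15 rises were called against 4 libraries and 44 falls against replicate 4. In each of the 8 leave-outs the share of reads outside genes stayed lower in every 1 h library than in every 0 h library. The differences were −0.163 to −0.0745 percentage points. The exact permutation p went from 0.0286 to 0.0571, the smallest possible with 1 library fewer, so this change in p was fixed by the group sizes. Late mRNA with the 2% limit was 3.45% in 0 h replicate 2 and 1.19% in 1 h replicate 1, with 1% at 3 h alone 1.70% in 1 h replicate 1, and with 5% at 3 h alone 9.88%, 11.0% and 5.98% in 0 h replicates 1, 3 and 4 and 5.81%, 4.97%, 5.16% and 4.83% at 1 h. A minimum of 50 CPM left 3 genes and gave no value. With 5% at 3 h alone replicate 4 was no longer the lowest library. Within each comparison no named gene changed sign in the alternatives run. Ppn, LanB2, LanA and Ndg, which were higher at 1 h against replicate 4, were lower against replicates 1 to 3 and against 4 libraries. DESeq2's size factors turned the replicate 4 calls from more rises than falls to more falls than rises. They also turned the medians of egg activation genes from 0.08 to −0.03 and of ribosomal protein genes from 0.08 to −0.04 in that comparison. For single named genes 521 alternatives kept the call and 59 lost it, and the causes were not tested.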
